A study of Homo sapiens with 6 samples.

Results

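Apolipoproteins are the protein part of lipoproteins, the particles that carry lipid in blood. The apolipoprotein genes described here were named by symbol in a rule of 10 genes (APOA1, APOA2, APOA4, APOA5, APOB, APOC1, APOC3, APOE, APOH and APOM), and 9 of them were found among the 16305 genes measured. APOA5 was not analysed here. The members were selected on their difference between fostamatinib and DMSO, which was known when the rule was written, so their levels and fold changes are given as a description, with no test.

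The cells were Huh7-R (Huh7SR in the labels), a pool made resistant to sorafenib by long exposure of the human hepatocellular carcinoma cell line Huh7 and taken off sorafenib before experiments. A pool of 1 line is a narrow model of liver cancer, and both groups carry the resistance. There were 3 samples given fostamatinib, an inhibitor of the kinase SYK, and 3 given DMSO, the solvent used as vehicle, each for 24 h. The paper reports that SYK protein was not found in Huh7 cells, and it proposes that the drug works through other targets. The labels write a dose of 2 µM for both agents. Whether replicates came from separate cultures is not stated, so p-values measure only the spread between these samples, which may be technical.

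RNA was sequenced after poly(A) selection. Values are log2 CPM, the log2 of the count plus 0.5 after scaling to a common library size, and they were turned back into reads, with 100% of values within 0.05 of a whole number. Listed genes took 13303451 to 15272737 reads in each sample. Relative to counting error, the variance (a chi-square divided by its degrees of freedom) was 1.65 to 3.74 between replicates and 39.8 to 44.5 between samples of opposite groups. All 7 hepatocyte markers (such as ALB, albumin) and both hepatoma markers (AFP and GPC3) were present.

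In the liver, APOB forms the backbone of very low density lipoprotein, on which triglyceride leaves the cell, and APOA1 and APOA2 are the main proteins of high density lipoprotein. The small C apolipoproteins sit on the particle surface and tune how fast lipases and receptors clear it, while APOE is the ligand by which receptors take remnants up. APOA4 is made mainly by the gut in humans and enters on chylomicrons. APOM carries sphingosine 1-phosphate on high density lipoprotein, and APOH, also called beta-2 glycoprotein I, binds phospholipid surfaces.

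Promoter windows from the RefSeq table were held for 6 of the 9 measured members (APOA2, APOA4, APOC1, APOE, APOH and APOM), 8 windows in all. The windows of 2 members are shown because they are the only ones that held a searched motif, APOA4 only through a motif added after its window had been read. These members also lie far apart in response, APOA4 with the largest rise and APOH with nearly the smallest. Each line gives the 250 bases before the start site, 5′ to 3′ on the gene's strand, from GRCh38.p14 and with a single exact match in GRCh37, at chr11:116694021-116694270 (minus strand) for APOA4 and at chr17:64225534-64225783 (minus strand) for APOH. The APOH start site of RefSeq lies inside the span that GENCODE gives the gene. Capitals mark the motif matches.
APOA4: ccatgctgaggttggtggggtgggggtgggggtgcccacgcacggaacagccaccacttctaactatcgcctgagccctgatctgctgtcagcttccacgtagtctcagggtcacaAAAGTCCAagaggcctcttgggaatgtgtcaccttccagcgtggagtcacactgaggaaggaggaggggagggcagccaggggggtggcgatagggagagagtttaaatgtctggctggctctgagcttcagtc
APOH: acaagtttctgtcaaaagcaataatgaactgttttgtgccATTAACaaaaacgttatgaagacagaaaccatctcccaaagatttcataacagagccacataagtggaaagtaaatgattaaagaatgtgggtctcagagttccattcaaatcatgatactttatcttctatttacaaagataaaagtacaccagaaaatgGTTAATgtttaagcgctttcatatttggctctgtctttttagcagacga

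The search covered both strands from 250 bases before to 50 bases after each start site. In APOA4 the capitals are AAAGTCCA, which starts 134 bases before the start site and is held by 1.14% of the 35116 promoters in the table. That motif was added after the window had been read, and the window held none of the motifs planned before. It is the end of CAAAGTCCA, a site form of the liver factor HNF4A, which none of the 8 windows held, against 0.384% of all promoters. In APOH the capitals are GTTAAT, on the minus strand from 210 bases and on the plus strand from 49 bases before the start site, a motif found in 6.88% of promoters. The nuclear receptor motif AGGTCA, found in 13.8% of promoters, was in none of the 8 windows. Nor was the core promoter element TATAAA, found in 11.5%. The C/EBP motif TTGCATCA, in 0.866% of promoters, and the CREB family motif TGACGTCA, in 1.85%, were also absent from these windows. A match of letters is no more than that, and no match says only that these letters are not in this window.

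All 9 measured apolipoprotein genes were higher after fostamatinib than after DMSO, by 24.6-fold for APOA4 and about 9-fold for APOA1 and APOC3 at one end and by 1.16-fold for APOB at the other. The members of the chromosome 11 cluster, which lie side by side, stood above the remaining 6, whose differences were at most 2.32-fold. In limma's fit over all genes 9 of the 9 had a Benjamini-Hochberg adjusted p under 0.05 and were higher, where 23.3% of all 16305 genes were higher, 24.5% lower and 47.8% either. The count was 8 of 9 without the mean-variance trend, where APOB was not called, and 8 of 9 at a threshold of 1 expected false positive, where APOM was not. Of the members, 5 were more than 2-fold higher (3.85% of all genes), and in 9 every fostamatinib sample lay above every DMSO sample (26.8% of all genes). Since these same values chose the members, nothing is read from the counts. The median log2 fold change of the 9 was 1.11, and that of all genes was 0.0015. All 7 hepatocyte markers rose too, with a median log2 fold change of 0.55, and their part in these values was not tested.

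**Figure D1:**
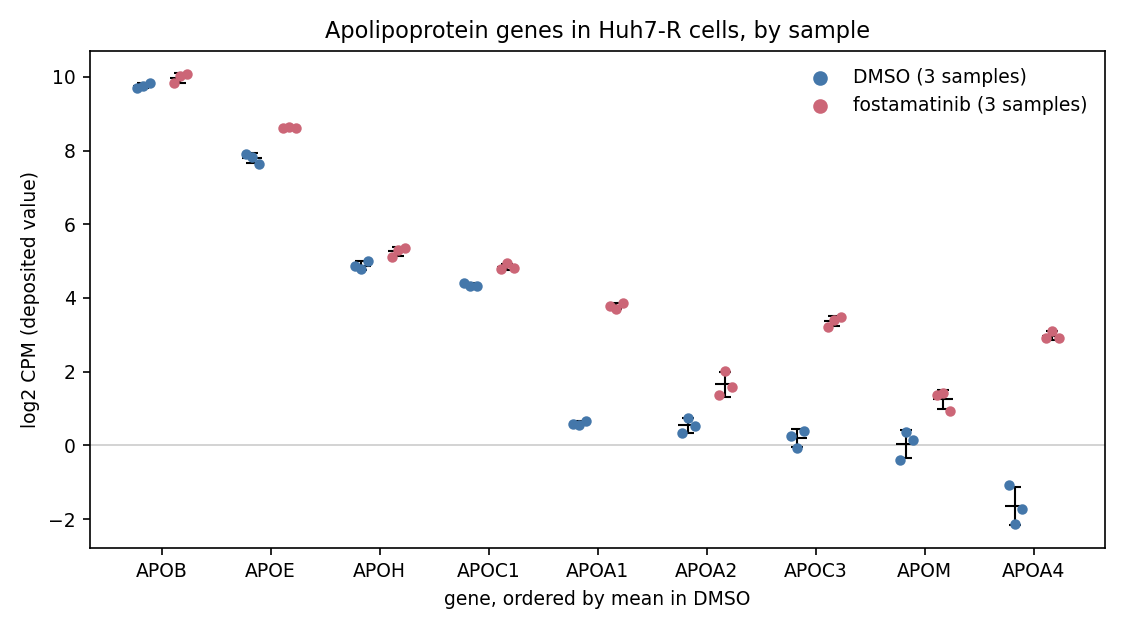
Deposited log2 CPM (vertical axis) of the 9 measured apolipoprotein genes (horizontal axis, ordered by their DMSO mean) in 3 DMSO and 3 fostamatinib samples of Huh7-R cells. Points are samples, and black marks are the mean ± SD of each group; APOA4 went from a mean of -1.64 to 2.98, while APOB stayed near the top of the range, at 9.76 and 9.97.

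APOA4, the chylomicron apolipoprotein, had 6, 3 and 4 reads after DMSO and 103, 123 and 99 reads after fostamatinib. Its level was -1.64 ± 0.52 log2 CPM (SD, n = 3) after DMSO and 2.98 ± 0.12 (SD, n = 3) after fostamatinib. The log2 fold change was 4.62 with a standard error of 0.28, a 24.6-fold difference with a 95% interval of 16.5- to 36.7-fold. The fostamatinib samples were alike, and every one lay far above the DMSO samples, where the gene stood close to the detection limit. The gene was kept by the authors' filter on low counts through the fostamatinib group alone, as were 620 of all genes, which favours a higher value after fostamatinib. The other 8 members passed in both groups. Its span, chr11:116691416-116694020 on the minus strand of GRCh37 (ENSG00000110244), shares 842 bases with an antisense long noncoding gene, ENSG00000285513, and how the counting used strand is not given in the sources used here. The 3 markers of enterocytes, the gut cells that make APOA4, that passed this filter in both groups rose as well, which is described with the other marker genes.

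APOA1, the main protein of high density lipoprotein, had 20, 22 and 23 reads after DMSO and 189, 185 and 194 reads after fostamatinib. Its level was 0.60 ± 0.055 log2 CPM (SD, n = 3) after DMSO and 3.79 ± 0.087 (SD, n = 3) after fostamatinib. On the log2 scale the difference was 3.19 with a standard error of 0.16, which is 9.12-fold with a 95% interval of 7.30- to 11.4-fold. Replicates differed little in either group, and the groups were wide apart. The gene (ENSG00000118137) lies at chr11:116706467-116708338 on the minus strand, and 1506 bases of it are shared with the antisense gene APOA1-AS.

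APOC3, an inhibitor of triglyceride clearance, had 16, 14 and 19 reads after DMSO and 128, 151 and 149 reads after fostamatinib. Its level was 0.19 ± 0.24 log2 CPM (SD, n = 3) after DMSO and 3.38 ± 0.14 (SD, n = 3) after fostamatinib. The log2 fold change was 3.18 with a standard error of 0.19, which is 9.09-fold with a 95% interval of 6.97- to 11.8-fold. Its difference was therefore within the error of that of APOA1, although the genes are read from opposite strands. APOC3 (ENSG00000110245) lies between APOA4 and APOA1, at chr11:116700422-116703788 on the plus strand.

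The proportions within the chromosome 11 cluster differed as well. The trio of APOA1, APOC3 and APOA4 took 39 to 46 reads a sample after DMSO and 420 to 459 after fostamatinib. APOA4 made up 10.2% ± 3.55 of these reads (SD, n = 3) after DMSO and 24.6% ± 2.20 (SD, n = 3) after fostamatinib. APOC3 made up 38.4% ± 2.72 after DMSO and 32.4% ± 1.68 after fostamatinib (SD, n = 3). APOA1 took the largest part in both groups, 51.3% ± 4.55 after DMSO and 43.1% ± 2.45 after fostamatinib (SD, n = 3). The DMSO shares rest on few reads, with 3 to 6 reads for APOA4. APOA4 was also kept by the filter through the fostamatinib group alone, so a low DMSO share was favoured by that filter. Shares add up to a whole, so the lower shares of APOA1 and APOC3 mirror the higher share of APOA4 and are no separate result.

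The cluster, counted from APOA5 to APOA1, spans 48.3 kb, and 4 other listed genes lay within 250 kb of it. SIK3, a kinase gene, rose by 0.24 on the log2 scale (adjusted p = 0.00045, limma) and ZPR1, a zinc finger gene beside APOA5, fell by 0.38 (adjusted p = 1.7e-06, limma). BUD13 had a log2 fold change of -0.14 (adjusted p = 0.206, limma) and ENSG00000234268 one of 0.36 (adjusted p = 0.167, limma). The neighbours ranged from -0.38 to 0.36, with a median of 0.053, and each of the 3 measured cluster members lay above this range. Members were selected on this difference and neighbours were not, so nothing is read from that.

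**Figure D2:**
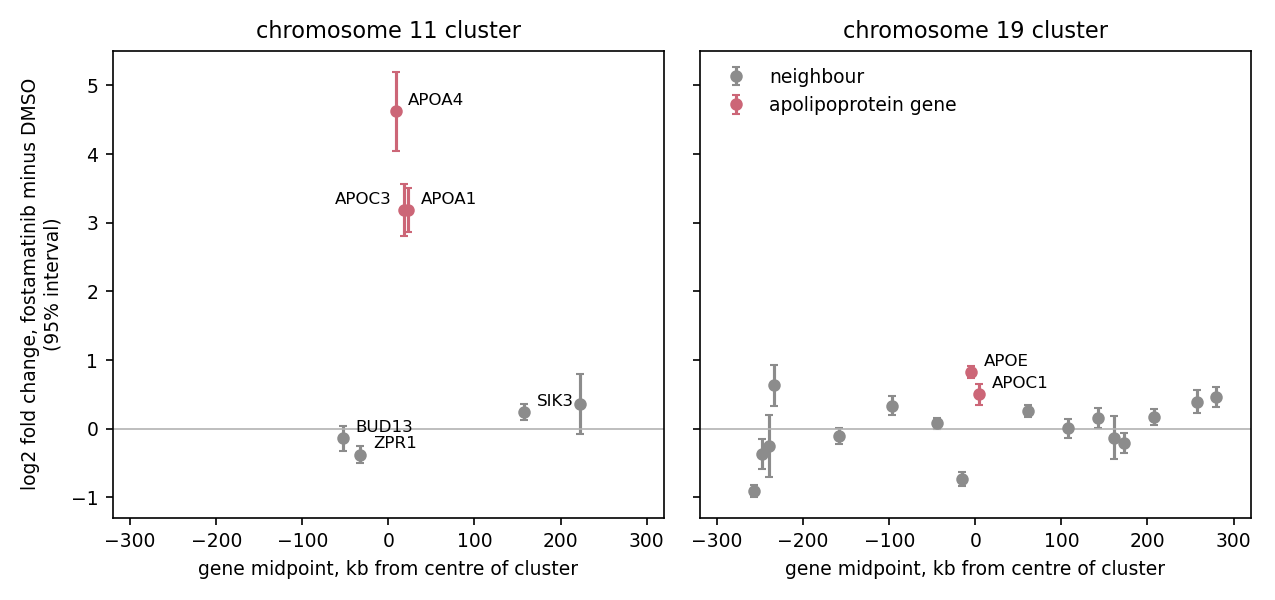
Log2 fold change, fostamatinib minus DMSO (vertical axis, with 95% intervals), against the distance of each gene's midpoint from the centre of the apolipoprotein cluster in kb (horizontal axis), for the clusters on chromosomes 11 and 19. Red points are apolipoprotein genes and grey points are the other listed genes within 250 kb; on chromosome 11 the members lie between 3.18 and 4.62 and the neighbours between -0.38 and 0.36, and on chromosome 19 APOE lies at 0.83 and the neighbours between -0.90 and 0.63.

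APOA2, the second protein of high density lipoprotein, had 17, 25 and 21 reads after DMSO and 35, 57 and 39 reads after fostamatinib. Its level was 0.54 ± 0.20 log2 CPM (SD, n = 3) after DMSO and 1.65 ± 0.33 (SD, n = 3) after fostamatinib. On the log2 scale the difference was 1.11 with a standard error of 0.24, a 2.16-fold difference with a 95% interval of 1.54- to 3.03-fold. Fostamatinib replicate 2 was the highest sample, and the groups did not overlap. Without that sample the log2 fold change was 0.93, under the 2-fold line. APOA2 (ENSG00000158874) lies apart from the other members, at chr1:161192082-161193421 on the minus strand. It shares 215 bases with AL590714.1, a protein-coding gene on the opposite strand that was not among the genes measured.

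APOM, the carrier of sphingosine 1-phosphate, had 10, 19 and 16 reads after DMSO and 35, 38 and 25 reads after fostamatinib. Its level was 0.037 ± 0.39 log2 CPM (SD, n = 3) after DMSO and 1.25 ± 0.27 (SD, n = 3) after fostamatinib. The log2 fold change was 1.21 with a standard error of 0.28, a 2.32-fold difference with a 95% interval of 1.56- to 3.43-fold. The groups did not overlap, but the spread was wide in both, and without DMSO replicate 1, the lowest sample, the log2 fold change was 0.996. APOM (ENSG00000204444, chr6:31620193-31625987, plus strand) shares 290 bases with BAG6 on the opposite strand, which was among the genes measured.

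APOE, the receptor ligand of remnants, had 3301, 3474 and 2968 reads after DMSO and 5372, 5711 and 5151 reads after fostamatinib. Its level was 7.79 ± 0.14 log2 CPM (SD, n = 3) after DMSO and 8.62 ± 0.024 (SD, n = 3) after fostamatinib. On the log2 scale the difference was 0.83 with a standard error of 0.046, which is 1.77-fold with a 95% interval of 1.66- to 1.89-fold. The fostamatinib samples were nearly equal, and the DMSO samples lay well below them. With its many reads per sample, this difference is much better determined than the larger ones of APOA2 and APOM.

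APOC1, a small surface apolipoprotein next to APOE, had 291, 307 and 296 reads after DMSO and 380, 439 and 375 reads after fostamatinib. Its level was 4.35 ± 0.045 log2 CPM (SD, n = 3) after DMSO and 4.85 ± 0.082 (SD, n = 3) after fostamatinib. The log2 fold change was 0.50 with a standard error of 0.076, a 1.42-fold difference with a 95% interval of 1.27- to 1.57-fold. The groups did not overlap. APOE (ENSG00000130203, chr19:45409048-45412650) and APOC1 (ENSG00000130208, chr19:45417504-45422606) are both on the plus strand, within 13.6 kb, and 722 bases of APOC1 are shared with ENSG00000280087, a same-strand entry whose product has not been established. Of the 16 other listed genes within 250 kb, 6 rose, 4 fell and 6 did not pass the test, with a median log2 fold change of 0.041. Among all 16305 genes, 23.3% were higher, 24.5% lower and 47.8% either, so nothing is read from this count. TOMM40, which codes for a mitochondrial import channel and ends just before APOE, fell by 0.73 on the log2 scale (adjusted p = 1.04e-14, limma). The differences of APOC1 and APOE, which were selected on them, lay inside and above the range of these neighbours, -0.90 to 0.63.

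APOH, the phospholipid-binding plasma protein, had 401, 418 and 476 reads after DMSO and 477, 566 and 546 reads after fostamatinib. Its level was 4.88 ± 0.11 log2 CPM (SD, n = 3) after DMSO and 5.27 ± 0.13 (SD, n = 3) after fostamatinib. On the log2 scale the difference was 0.38 with a standard error of 0.073, a 1.30-fold difference with a 95% interval of 1.18- to 1.45-fold. The groups lay close together without overlap (ENSG00000091583, chr17:64208151-64252643, minus strand).

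APOB, the backbone of very low density lipoprotein, had 11370, 13193 and 13513 reads after DMSO and 12516, 14806 and 14218 reads after fostamatinib. Its level was 9.76 ± 0.070 log2 CPM (SD, n = 3) after DMSO and 9.97 ± 0.13 (SD, n = 3) after fostamatinib. The log2 fold change was 0.21 with a standard error of 0.043, a 1.16-fold difference with a 95% interval of 1.09- to 1.23-fold. This interval depends on the mean-variance trend of the fit, without which the standard error was 0.081. The lowest fostamatinib value and the highest DMSO value both round to 9.83 log2 CPM, so the groups all but met. APOB (ENSG00000084674) lies at chr2:21224301-21266945 on the minus strand, and 675 bases of it are shared with ENSG00000280390, an opposite-strand entry.

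**Figure D3:**
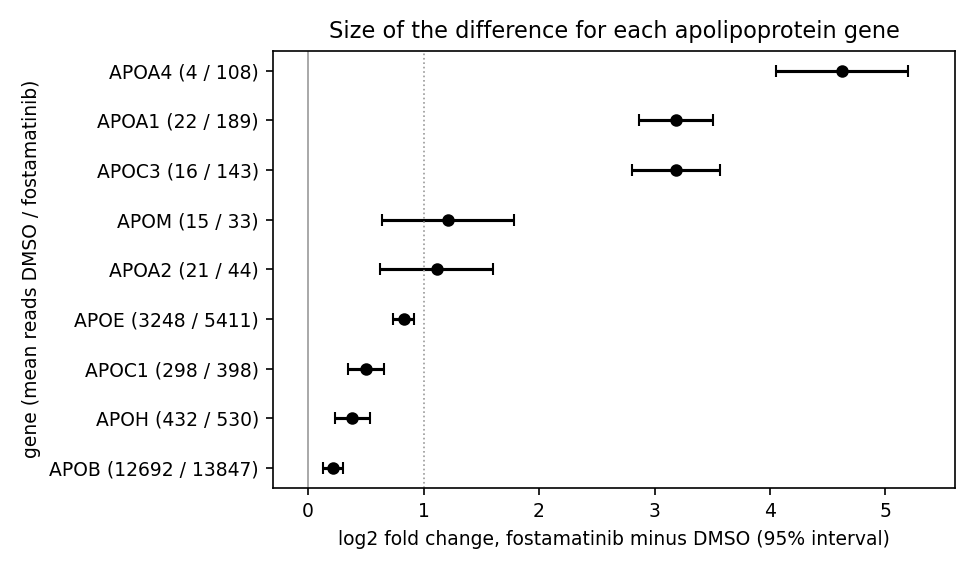
Log2 fold change, fostamatinib minus DMSO, with its 95% interval (horizontal axis) for each measured apolipoprotein gene (vertical axis, with the mean reads after DMSO and after fostamatinib in brackets). The dotted line marks a 2-fold difference; APOA4, APOA1 and APOC3 lie between 3.18 and 4.62, the intervals of APOM and APOA2 span the line, and APOE, APOC1, APOH and APOB lie between 0.21 and 0.83.

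Most of the apolipoprotein transcript pool came from APOB and APOE, so the pool moved far less than its most responsive members. The 9 genes summed to 1144 ± 23.3 CPM (SD, n = 3) after DMSO and 1506 ± 93.4 CPM (SD, n = 3) after fostamatinib, a ratio of the means of 1.32. Of the difference of 361.7 CPM, APOE gave 171.0 CPM and APOB 140.9 CPM. APOA4, at 0.33 ± 0.12 CPM after DMSO and 7.90 ± 0.66 CPM after fostamatinib (SD, n = 3), gave little of it despite the largest fold. APOB made up 75.7% ± 2.14 of the members' CPM after DMSO and 66.8% ± 1.66 after fostamatinib (SD, n = 3). CPM counts longer transcripts more often, which favours APOB in these shares.

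Per length, as log2 RPKM (CPM per kb of exon), APOE was the most abundant member in both groups, at 6.69 ± 0.14 after DMSO and 7.51 ± 0.024 after fostamatinib (SD, n = 3). APOB followed at 5.87 after DMSO and 6.08 after fostamatinib, and then came APOH, at 4.47 and 4.85, and APOC1, at 4.11 and 4.62. These 4 kept their order, although the samples of APOH and APOC1 overlapped after fostamatinib.

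The lower 5 changed places. After DMSO the order of log2 RPKM was APOA2 at 0.62, APOA1 at 0.47, APOC3 at 0.43, APOM at -0.27 and APOA4 at -2.20. APOA2 and APOA1, and APOA1 and APOC3, overlapped there, and the other neighbours in the order did not. After fostamatinib it was APOA1 at 3.65, APOC3 at 3.61, APOA4 at 2.42, APOA2 at 1.73 and APOM at 0.94, with an overlap only between APOA1 and APOC3. APOA4 moved past both APOA2 and APOM, from the lowest of the 9 to rank 7, and APOA1 moved past APOA2, though its samples overlapped those of APOA2 after DMSO. With the longest transcript as length in place of all exons, 4 of the 9 genes kept their rank in both groups. APOC3 ranked 5 in each, above APOA2 already after DMSO, and APOH and APOC1 changed places.

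**Figure D4:**
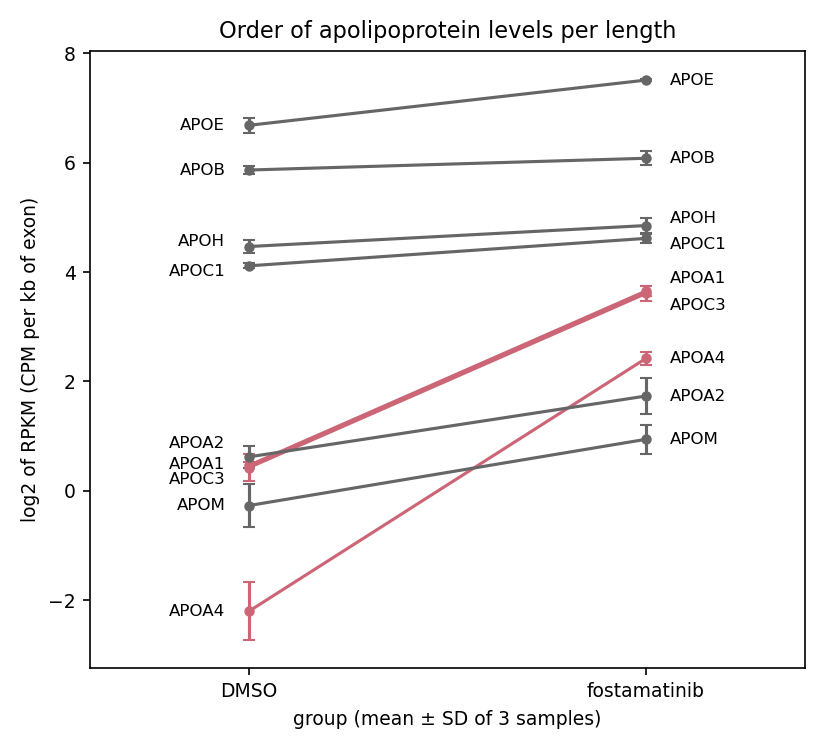
Level per length, as log2 RPKM, CPM per kb of exon (vertical axis), for the 9 measured apolipoprotein genes after DMSO and after fostamatinib (horizontal axis). Points are means and bars the SD of 3 samples, and red lines are the chromosome 11 genes; APOA4 went from -2.20 to 2.42 and crossed the lines of APOA2 and APOM, while APOE and APOB stayed on top.

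The other genes of lipoprotein metabolism did not move as a block. Their lists were chosen with earlier results of these data known. Beside the counts of each list stand the shares of all 16305 genes, 23.3% higher, 24.5% lower and 47.8% either. Beside the 9 members, 14 further apolipoprotein genes were listed by name and 6 were measured, of which 1 rose, 4 fell and 1 did not pass the test (limma, adjusted p under 0.05), with a median log2 fold change of -0.24. APOL6, of the interferon-inducible APOL family, fell by 1.44 on the log2 scale (adjusted p = 1.16e-16, limma), from 5.19 ± 0.15 to 3.75 ± 0.084 log2 CPM (SD, n = 3). APOL1, the trypanosome lytic factor, fell by 0.28 (adjusted p = 0.0025, limma) and APOO, a mitochondrial inner membrane protein, by 0.34 (adjusted p = 0.0011, limma). CLU, a chaperone also known as APOJ, rose by 0.33 (adjusted p = 3.33e-05, limma). APOL2, another member of the APOL family, fell by 0.19 (adjusted p = 0.0054, limma), so that 3 of the 4 genes that fell were APOL genes. APOC2 was not analysed here.

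Of 12 genes of lipoprotein assembly and secretion, 10 were measured, and 8 rose, 0 fell and 2 did not pass the test, with a median log2 fold change of 0.46. CIDEB, a lipid droplet protein needed to load very low density lipoprotein, rose by 2.14 (adjusted p = 7.04e-22, limma), from 3.22 ± 0.044 to 5.36 ± 0.029 log2 CPM (SD, n = 3). Both enzymes that form triglyceride rose, DGAT1 by 1.38 (adjusted p = 1.04e-15, limma) and DGAT2 by 0.49 (adjusted p = 6.81e-08, limma). SAR1B, the GTPase of the vesicles that carry large lipoproteins, rose by 0.44 (adjusted p = 6.02e-08, limma). SOAT2, an enzyme that forms cholesteryl ester, also passed the test (adjusted p = 0.0046, limma), but on 0, 0 and 1 reads after DMSO and 5, 6 and 4 after fostamatinib, and it too was kept through the fostamatinib group alone. Among the 9 genes that passed the filter in both groups, 7 rose. MTTP, which loads lipid onto APOB, was not analysed here.

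Of 16 genes of plasma remodelling and cholesterol export, 9 were measured, and 3 rose, 2 fell and 4 did not pass the test, with a median of 0.058. LIPC, hepatic lipase, rose by 1.41 (adjusted p = 1.33e-16, limma), from 3.68 ± 0.11 to 5.09 ± 0.055 log2 CPM (SD, n = 3). LIPG, endothelial lipase, fell by 1.36 (adjusted p = 7.00e-11, limma), and ANGPTL4, a lipase inhibitor, fell by 0.77 (adjusted p = 6.11e-05, limma). ABCA1, the exporter that loads lipid onto APOA1, had a log2 fold change of 0.10 (adjusted p = 0.110, limma). The lipases LIPC and LIPG thus differed in direction.

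All 14 receptor genes and their regulators were measured, and 4 rose, 5 fell and 5 did not pass the test, with a median of 0.072. LRP8, a receptor for APOE, fell by 1.55 (adjusted p = 4.79e-18, limma), from 5.29 ± 0.022 to 3.74 ± 0.13 log2 CPM (SD, n = 3), and VLDLR, which also binds APOE, fell by 1.13 (adjusted p = 1.8e-17, limma). SCARB1, the receptor for high density lipoprotein, fell by 0.21 (adjusted p = 0.00015, limma). LRP1, a remnant receptor, rose by 0.75 (adjusted p = 4.6e-18, limma). LRP1 thus went the other way from VLDLR and LRP8.

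Of 30 transcription regulators of apolipoprotein genes, 29 were measured, and 19 rose, 7 fell and 3 did not pass the test, with a median log2 fold change of 0.45. MLXIPL, the carbohydrate-sensing factor ChREBP, rose by 2.65 (adjusted p = 4.68e-13, limma). CEBPA, a hepatocyte factor, rose by 1.58 (adjusted p = 7.2e-18, limma), and CREB3L3, a liver and gut factor known as an activator of APOA4, rose by 1.58 (adjusted p = 1.4e-24, limma), from 5.73 ± 0.045 to 7.31 ± 0.015 log2 CPM (SD, n = 3). HNF4A, which binds the regulatory elements of the chromosome 11 cluster, rose by 1.02 (adjusted p = 8.4e-22, limma). The nuclear receptor RORA, listed as a regulator of apolipoprotein genes like those that rose, fell by 2.24 (adjusted p = 1.4e-08, limma). Its level went from 1.81 ± 0.047 to -0.43 ± 0.41 log2 CPM (SD, n = 3). What part the regulators had in the apolipoprotein differences was not tested.

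**Figure D5:**
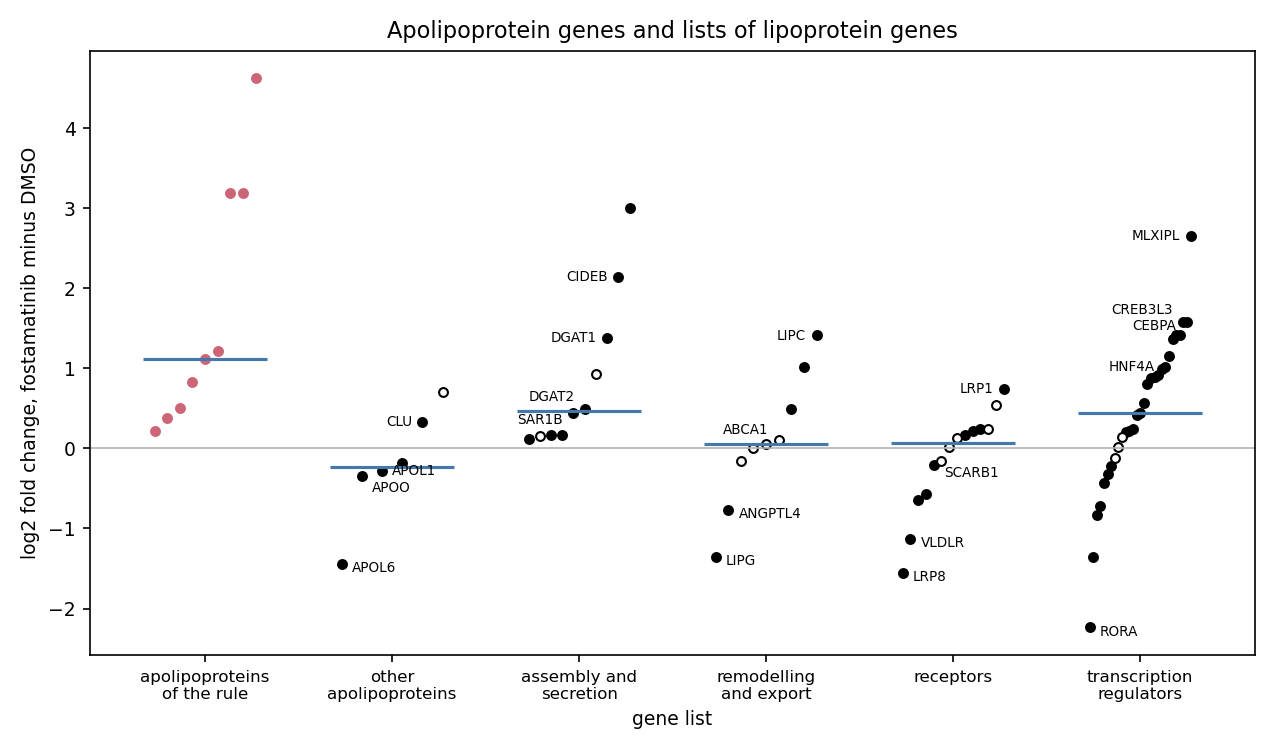
Log2 fold change, fostamatinib minus DMSO (vertical axis), of each measured gene in the apolipoprotein rule and in 5 lists of related genes (horizontal axis); blue lines are list medians. Red points are the 9 members, shown with no test, filled black points have an adjusted p under 0.05 in limma's fit and open points do not; the medians are 1.11 for the members, 0.46 for assembly and secretion, 0.45 for the regulators and between -0.24 and 0.072 for the other lists.

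Markers of other cell types were read beside these values. All 7 hepatocyte markers rose, and their summed level was 2555 to 2701 CPM after DMSO and 3858 to 4086 CPM after fostamatinib. Of 8 enterocyte markers, which matter for APOA4, 4 were measured, and the 3 that passed the authors' filter in both groups (VIL1, CDH17 and CDX2) rose. The summed level of the 4 was 85.6 to 94.0 CPM after DMSO and 178 to 182 CPM after fostamatinib. VIL1, the microvillus protein villin, rose by 0.97 on the log2 scale and the gut factor CDX2 by 1.65 (adjusted p = 1.54e-18 and 1.09e-12, limma). SI, sucrase-isomaltase, had 1, 1 and 0 reads after DMSO and 8, 7 and 3 after fostamatinib. SI was kept through the fostamatinib group alone, which favours a higher value there. The enterocyte markers ALPI, CDX1, FABP2 and LCT were not analysed here. The cells are a pool of 1 line, so these markers are genes read in that line and do not identify other cell types in it. In a bulk sample, more cells that express a gene and more RNA per cell cannot be told apart. Of 6 macrophage markers 1 was measured, CD14, with a log2 fold change of -0.17 (adjusted p = 0.834, limma). Of 6 fibroblast markers 4 were measured and 2 rose, and of 5 endothelial markers 1 was measured, PECAM1, which rose by 0.51 (adjusted p = 0.00084, limma). The part of these markers' changes in the apolipoprotein differences was not tested.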

How the data were processed

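RNA-seq values of 3 fostamatinib and 3 DMSO samples of Huh7-R cells were used, grouped by their titles. The authors aligned reads with HISAT (hg19) and obtained gene counts from featureCounts and GENCODE. They dropped a gene where, in each group, under 5 reads were found in 2 or more of its 3 samples, and scaled by TMM. The deposited values are log2 CPM, with 0.5 reads added before the logarithm. Each file has 16311 rows; 6 repeats of 1 ribosomal RNA gene were dropped, which left 16305 genes, 1911 of them without a symbol.

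A linear model with treatment as its term was fitted to the deposited log2 CPM of all genes with limma 3.58.1 (lmFit, eBayes with trend) in R 4.3.3, with Benjamini-Hochberg adjustment over all of them; Python 3.11.15, pandas 2.3.3, numpy 2.4.6 and matplotlib 3.10.9 made the tables and figures. Scripts were tested on simulated data. Fold changes are on the scale of log2 CPM with 0.5 added reads, so they understate those of genes with few reads. With 3 samples a group the smallest p of an exact permutation test is 0.10, and none was run. Positions and exon lengths are from GRCh37, the same build as hg19, with the GENCODE annotation mapped to it, in which 98.7% of identifiers had a place.

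The members and lists were chosen with earlier results of these data known. Named genes were all members; of each list, a few genes whatever their value (among them SCARB1, ABCA1, LIPC, HNF4A and CREB3L3; MTTP and APOC2 were not analysed here) and up to 4 genes with the largest change among those past the threshold, with 50 or more reads on average in the higher group and no overlap between groups; and the 3 genes nearest in pattern to the member with the largest rise. Some genes that meet this rule are not reported here. Cell type markers were taken from a fixed list. SOAT2, APOL2, TOMM40, the genes beside the chromosome 11 cluster and BAG6 were named outside this rule, after their values were seen. Alternatives were limma-voom on the recovered reads, no trend, RLE scaling, library size alone, 2 added reads, 2 stricter filters, the replicate number as a block, leaving out each sample, and a threshold of 1 expected false positive. The planned test of the members' share of reads and the protein comparison were not run.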

Additional observations from a re-analysis of the deposited data

How the results depend on the processing

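At a threshold of 1 expected false positive, 4136 genes were called in place of 7794, 2 of the other apolipoprotein genes in place of 5, and 5 of the assembly genes in place of 8; this is the construction of a stricter limit. With the longest transcript as length, 4 of 9 members kept their rank in both groups. In the other 103 comparisons counts stayed within 1.5 times their value and the members' share of reads within its spread, under every alternative that gave a value. The members kept their direction throughout, and their call in 131 comparisons, the 2 exceptions being APOB without the mean-variance trend and APOM at 1 expected false positive, which leaves 8 of 9 members in each. The members were selected on this contrast and every alternative used the same samples, so nothing is read from these calls. APOA4 was removed by the filter that both groups had to pass and by that of at least 10 reads in every sample, and over the other 13 alternatives its log2 fold change ranged from 4.23 to 4.90. APOA1 ranged from 3.11 to 3.23, APOC3 from 3.05 to 3.28, APOE from 0.75 to 0.88 and APOB from 0.17 to 0.29. APOM, at 0.996 without DMSO replicate 1, and APOA2, at 0.93 without fostamatinib replicate 2, crossed the 2-fold line. Leaving out each sample in turn gave 6958 to 7480 called genes. The replicate block gave 7977 genes and the same 9 members, and it changed no list's count by over 1.5 times. Same-numbered samples did not deviate together (correlations of 0.028, -0.019 and 0.013 over 13287 genes), so no pairing by number was seen. Such correlations cannot show that these samples were handled apart, which the labels do not state. Depth limits the values of APOA4, APOA1, APOC3, APOA2 and APOM after DMSO, at 3 to 25 reads each.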

Other observations

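GSTA2 and FST were among the 3 genes whose pattern over the 6 samples was most like that of APOA4. They were found by the Euclidean distance between log2 CPM values centred on each gene's mean, among 11719 genes that averaged 50 or more reads in the higher group, and since all 6 samples enter the distance it carries no test. GSTA2, a glutathione transferase of liver and gut, lay at 1.02, with 10, 7 and 10 reads after DMSO and 125, 132 and 129 after fostamatinib. FST, the activin-binding protein follistatin, lay at 1.33 and had 6, 11 and 6 reads after DMSO and 205, 246 and 239 after fostamatinib. No member fell, so no such search was made for a fall.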
